A study of Mus musculus with 79 samples.

Results

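The genes described here encode subunits of the 5 protein complexes of the mitochondrial respiratory chain. A probe was a member when its annotated gene symbol began with Atp5 or Uqcr, was one of Sdha to Sdhd, or was a numbered Nduf or Cox subunit symbol. This rule found 90 probes of 72 genes among the 25697 probes of the array, of which 17800 had 1 symbol and stood for 12739 genes. By complex, 42 probes of 32 genes belonged to complex I, 5 probes of 3 genes to complex II, 8 probes of 7 genes to complex III, 17 probes of 14 genes to complex IV and 18 probes of 16 genes to complex V. To be tested in a tissue, a member needed a detection p-value below 0.05 on 8 or more of its arrays. In the hippocampus 86 probes of 71 genes met this, and in the frontal cortex 85 probes of 70 genes did. The members that did not pass in the hippocampus were 1 probe each of Sdhb, Cox6b2, Atp5j and Atp5k, and Cox8b was added to these in the cortex.

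Complex I (NADH dehydrogenase) and complex II (succinate dehydrogenase, which also works in the citric acid cycle) feed electrons from NADH and succinate to ubiquinone. Complex III (cytochrome bc1) passes them to cytochrome c, and complex IV (cytochrome c oxidase) passes them to oxygen. The proton gradient that complexes I, III and IV build drives complex V, the ATP synthase, and neurons depend on this ATP for ion pumping and synaptic transmission. Several complex IV subunits come in a widely expressed form and in a form known from heart, skeletal muscle or testis. Ndufa4 was kept with complex I by its symbol, although its protein is now assigned to complex IV.

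Illumina MouseRef-8 bead arrays were run on total RNA from 2 brain regions of female mice, the left hippocampus and the left frontal cortex, and a value given below is a background-corrected, quantile-normalized log2 level. The study asked what an antisense oligonucleotide (ASO) against Cd33, a microglial receptor gene linked to Alzheimer's disease, does in brains that form amyloid plaques. Double transgenic APP/PS1 mice received the CD33 ASO, a control ASO without a target, or phosphate-buffered saline (PBS), and wild-type (WT) littermates received PBS. By the protocol each mouse had a cannula in the right lateral ventricle and an osmotic pump delivering 6 µL per day for 14 days, with 75 µg of ASO per day in the ASO arms, from 18 weeks of age, and brains were taken at about 20.5 weeks, on day 17. By their labels, 4 APP/PS1 animals were collected earlier: with the CD33 ASO 2 on day 13, within the planned infusion, and 1 on day 16, and with PBS 1 on day 14. The hippocampal groups held 9 CD33 ASO, 11 control ASO, 8 APP/PS1 PBS and 11 WT PBS arrays, and the cortical groups 10, 11, 8 and 11 in the same order. Of the 40 animals, 39 were measured in both tissues. In this mouse line both transgenes are driven by a Thy1 promoter element and are therefore expressed mainly in neurons. No WT mouse received an oligonucleotide, so the effect of an ASO could be read only on the APP/PS1 background. Tissue pieces hold all their cell types, and fewer cells of a type cannot be told apart from less RNA per cell.

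The hippocampal arrays lay on slides 1 to 5 and the cortical arrays on slides 6 to 10, so tissue and slide cannot be told apart. Cd33 ranged from 4.45 to 5.15 in CD33 ASO hippocampi, below all control ASO hippocampi at 6.15 to 7.16. The cortical ranges were 4.49 to 6.39 with the CD33 ASO and 6.48 to 7.25 with the control ASO. Thy1, whose promoter carries the transgenes, was at WT level on 7 arrays from 4 animals labelled APP/PS1. In the hippocampus 1 of these arrays was labelled CD33 ASO and 2 control ASO, and in the cortex 2 were labelled CD33 ASO and 2 control ASO. Calls of members that rest on these groups are given with and without the 4 animals. Of 8 measured neuronal markers 7 were detected on every array in either tissue.

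The promoters of 3 pairs of complex IV isoforms are printed because the first isoform of each pair behaved unlike the second in the hippocampus, as described further below. Each is the RefSeq window of GRCm38.p6 from 250 bases before to 50 after the gene's start, 5′ to 3′ on the gene's strand. Capitals mark matches to CCGGAAG or its other strand CTTCCGG, the core site of ETS factors such as GABP.
Cox8b, chr7:140900397-140900696, minus strand: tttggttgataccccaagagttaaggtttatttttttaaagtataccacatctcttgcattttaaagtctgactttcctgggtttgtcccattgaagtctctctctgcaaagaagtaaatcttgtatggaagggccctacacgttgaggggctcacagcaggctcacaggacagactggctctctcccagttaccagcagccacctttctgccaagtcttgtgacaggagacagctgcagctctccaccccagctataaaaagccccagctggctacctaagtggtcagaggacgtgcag
Cox8a, chr19:7217567-7217866, minus strand: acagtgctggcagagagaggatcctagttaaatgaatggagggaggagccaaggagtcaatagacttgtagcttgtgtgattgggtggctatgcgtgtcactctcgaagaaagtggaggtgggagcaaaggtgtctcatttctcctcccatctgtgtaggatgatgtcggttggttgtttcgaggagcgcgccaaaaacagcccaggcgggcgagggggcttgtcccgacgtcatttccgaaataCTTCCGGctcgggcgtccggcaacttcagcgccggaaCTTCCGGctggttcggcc
Cox7a1, chr7:30183921-30184220, plus strand: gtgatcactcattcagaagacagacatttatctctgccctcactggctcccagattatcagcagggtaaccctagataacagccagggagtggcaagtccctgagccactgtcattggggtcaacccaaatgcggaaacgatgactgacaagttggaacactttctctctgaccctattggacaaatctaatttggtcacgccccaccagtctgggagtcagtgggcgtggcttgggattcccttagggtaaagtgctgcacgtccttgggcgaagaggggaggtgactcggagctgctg
Cox7a2, chr9:79759804-79760103, minus strand: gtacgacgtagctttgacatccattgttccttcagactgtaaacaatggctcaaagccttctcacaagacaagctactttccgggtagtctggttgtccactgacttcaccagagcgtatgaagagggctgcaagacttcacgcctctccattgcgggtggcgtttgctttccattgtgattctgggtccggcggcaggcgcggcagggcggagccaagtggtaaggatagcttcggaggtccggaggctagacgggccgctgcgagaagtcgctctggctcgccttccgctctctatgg
Cox6b2, chr7:4753045-4753344, minus strand: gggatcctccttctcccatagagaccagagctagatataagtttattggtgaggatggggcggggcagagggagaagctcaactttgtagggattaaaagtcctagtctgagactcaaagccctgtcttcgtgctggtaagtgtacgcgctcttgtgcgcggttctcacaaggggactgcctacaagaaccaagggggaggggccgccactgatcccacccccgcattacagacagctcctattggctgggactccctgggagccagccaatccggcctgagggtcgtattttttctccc
Cox6b1, chr7:30626065-30626364, minus strand: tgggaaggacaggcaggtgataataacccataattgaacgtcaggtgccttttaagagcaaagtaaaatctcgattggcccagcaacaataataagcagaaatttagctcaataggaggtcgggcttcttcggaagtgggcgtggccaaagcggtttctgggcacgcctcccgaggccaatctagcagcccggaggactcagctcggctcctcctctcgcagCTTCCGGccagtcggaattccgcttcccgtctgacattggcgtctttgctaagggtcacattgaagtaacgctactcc
The windows held 2 CpG sites in Cox8b and 19 in Cox8a, 7 in Cox7a1 and 20 in Cox7a2, and 10 in Cox6b2 and 17 in Cox6b1. No ETS match lay in the windows of Cox8b, Cox7a1, Cox6b2 and Cox7a2, against 2 in Cox8a and 1 in Cox6b1.

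Promoter windows were found for 62 of the 72 member genes. The ETS letters stood in 25.8% of these genes and in 9.93% of all genes with a window. The letters AAGATGGC or GCCATCTT of the factor YY1 stood in 16.1% of the member genes and 3.19% of all genes. The consensus of NRF1, a regulator of nuclear genes for the respiratory chain, stood in 9.68% of member genes and 1.41% of all genes. Its exact palindromic core, which was searched first and overlaps the consensus, stood in 6.45% and 1.07%. Member windows also held more CpG sites, with a median of 19.0 against 7.0 in all windows, and the motif letters themselves contain CpG in the ETS and NRF1 cases. A match is a description of the letters and says nothing of binding.

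In the hippocampus, the members as a body lay lower in control ASO than in PBS brains of APP/PS1 mice. The mean of all measured members, each centred on its average over the hippocampal arrays, was -0.21, -0.096 and 0.035 (lowest, median, highest) on the 11 control ASO arrays and -0.057, 0.063 and 0.19 on the 8 PBS arrays. The groups overlapped, and the middle of the control ASO arrays lay below the lowest PBS array. Of the 86 members 71 had a negative difference, with a median of -0.098 against 0.0095 over all 14923 probes. Fitted with limma, 21 members from 18 genes fell (Benjamini-Hochberg adjusted p under 0.05 over all probes) and 0 rose, where 5.65% of all probes fell, 5.73% rose and 11.4% changed in either direction. Slides and groups were unevenly crossed: slide 4 held 5 control ASO arrays and no PBS array of APP/PS1 mice, and slides 3 and 5 held 5 of the 8 PBS arrays and no control ASO array. Fitted with slide as a block, the median difference was -0.053, 70 members were negative, 63 of them in both fits, and 0 were called, against 0.811% of all probes. Within the slides that held both groups, the members' median was -0.076 on slide 1, with 4 control ASO arrays and 1 PBS array, and -0.12 on slide 2, with 2 arrays of each. After median centring in place of quantile normalization the members' median was 0.034, which reverses its sign, beside 0.065 for all probes, and 14 members were called, 6 of them higher and 8 lower, where 8.99% of all probes were higher and 1.96% lower.

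**Figure D1:**
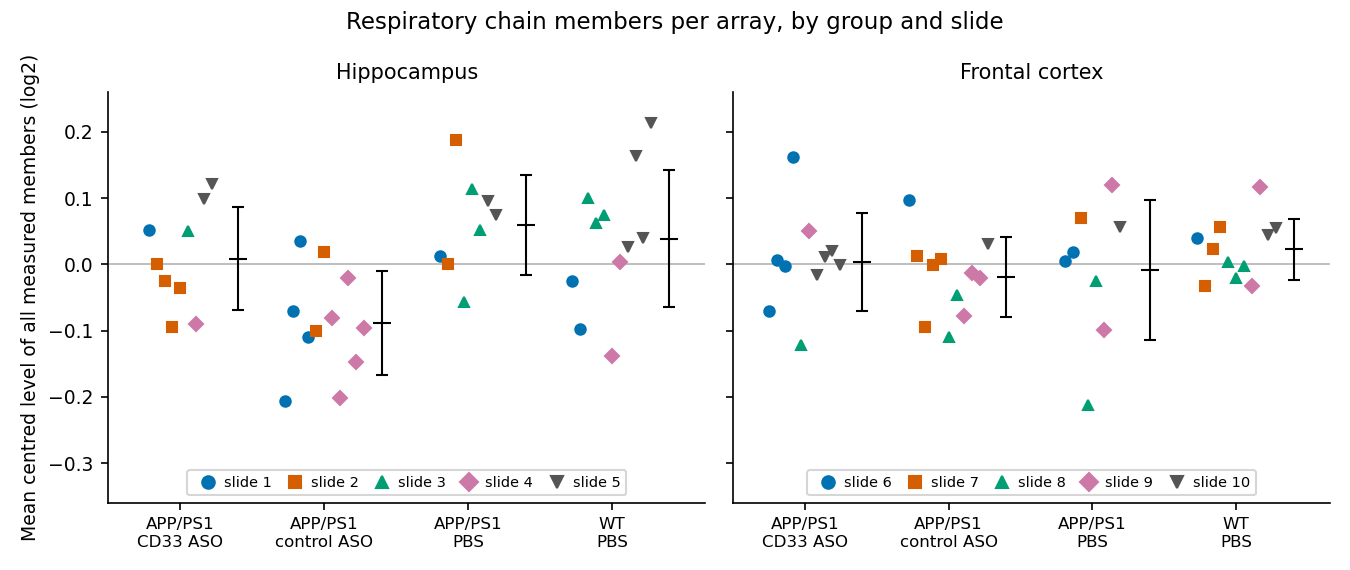
Mean centred log2 level of all measured members on each array (vertical axis) by group, with colour and shape for the slide and a bar for the group mean ± SD. Hippocampal control ASO arrays centre below 0, and the arrays of slide 4 lie low while those of slide 5 lie above 0 in every group that they hold.

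Among complex I members 11 probes fell with the control ASO, and 35 of 42 had a negative difference. Of the 12 probes of Ndufb genes, which encode accessory subunits of the membrane arm around the proton-pumping core, 6 fell, as did 4 of 8 Ndufs and 1 of 5 Ndufv probes. Ndufb6 was 7.13, 7.43 and 8.16 in control ASO and 7.61, 8.05 and 8.41 in PBS hippocampi. Its difference was -0.52 ± 0.11 (SE, adjusted p = 0.00193), and the ranges overlapped. In the slide-blocked fit the value was -0.30 (adjusted p = 0.173). The second Ndufb6 probe was brighter, with a mean of 12.41 over all arrays against 7.79. It differed by only -0.032 and was not called, so the probes of this gene disagree. Ndufb2 was 5.25, 5.74 and 6.33 against 5.90, 6.35 and 6.63 in PBS hippocampi, a difference of -0.52 (adjusted p = 0.0269). Ndufb10 gave -0.51, Ndufb9 -0.50 and Ndufb5 -0.40, with adjusted p between 0.0318 and 0.0421. With this block Ndufb9 was at -0.028 and Ndufb10 at 0.029, close to 0, whereas Ndufb5 was at -0.20 with an adjusted p of 0.657.

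In the matrix arm, the NADH-binding side of complex I, 3 of the 4 probes of Ndufs4 fell with the control ASO. Ndufs4 is an accessory subunit of the module that takes up electrons, and mice without it are used as a model of Leigh syndrome. Its 3 called probes, with means of 8.52 to 10.21 over all arrays, differed by -0.49, -0.43 and -0.37. The remaining probe, the brightest at a mean of 11.75, differed by -0.094. The probe at -0.37 was the only one of the 86 members whose groups did not overlap, at 9.67, 9.91 and 10.06 in control ASO and 10.12, 10.17 and 10.53 in PBS hippocampi, and 0.295% of all probes did not overlap. With the slide block its difference was -0.14 (adjusted p = 0.529). Ndufs3, a core subunit of that arm, differed by -0.23 (adjusted p = 0.00492) and Ndufv1, which holds the NADH site, by -0.12 (adjusted p = 0.0191).

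Complex II showed the largest median by complex in this comparison, -0.37 over 4 probes, of which 3 fell. Sdhb, the iron-sulfur subunit, was 9.71, 10.08 and 10.28 in control ASO and 10.22, 10.45 and 10.64 in PBS hippocampi, so only the highest control ASO array reached the PBS range. Its difference was -0.39 ± 0.079 (SE, adjusted p = 0.0014), and the second measured Sdhb probe gave the same -0.39 (adjusted p = 0.00263). Both were smaller with slide as a block, at -0.21 (adjusted p = 0.0918) and -0.20 (adjusted p = 0.213). Sdhc, a membrane anchor, differed by -0.22 (adjusted p = 0.0098).

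In complex III only Uqcrb, a small subunit near the ubiquinone site, was called. It was 8.28, 9.09 and 9.55 in control ASO and 8.97, 9.60 and 9.98 in PBS hippocampi, which overlapped widely. The difference of -0.53 ± 0.16 (SE, adjusted p = 0.0315) became -0.18 (adjusted p = 0.712) with slide as a block. The complex III median was -0.043.

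Complex IV had 3 called probes, and 15 of 16 differences were negative. Cox4i1, the main form of the largest nuclear-encoded subunit, was 13.27, 13.53 and 13.77 in control ASO and 13.61, 13.74 and 13.81 in PBS hippocampi, a difference of -0.19 (adjusted p = 0.00759). Cox7a2, the widely expressed form of subunit 7A, differed by -0.47 (adjusted p = 0.0464) and Cox5b by -0.14 (adjusted p = 0.02). The slide-blocked values were -0.082, -0.084 and -0.045.

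Complex V also had 3 called probes. Atp5h, a peripheral stalk subunit, was 10.30, 10.62 and 10.85 in control ASO and 10.77, 11.09 and 11.33 in PBS hippocampi, overlapping only at the top of the control ASO range. Its difference was -0.41 ± 0.099 (SE, adjusted p = 0.00684), and -0.11 with slide as a block. Atp5a1, the alpha subunit of the catalytic head, differed by -0.45 (adjusted p = 0.0269) and Atp5d of the central stalk by -0.23 (adjusted p = 0.0231). Without the 4 animals with low Thy1, 15 of the 21 members of all complexes were called again, where 3.91% of all probes fell, and the members' median was -0.075. The others, Atp5a1, Cox7a2, Uqcrb, Ndufb2, Ndufb9 and Ndufb10, lay between -0.50 and -0.43, with adjusted p of 0.0518 to 0.0962.

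**Figure D2:**
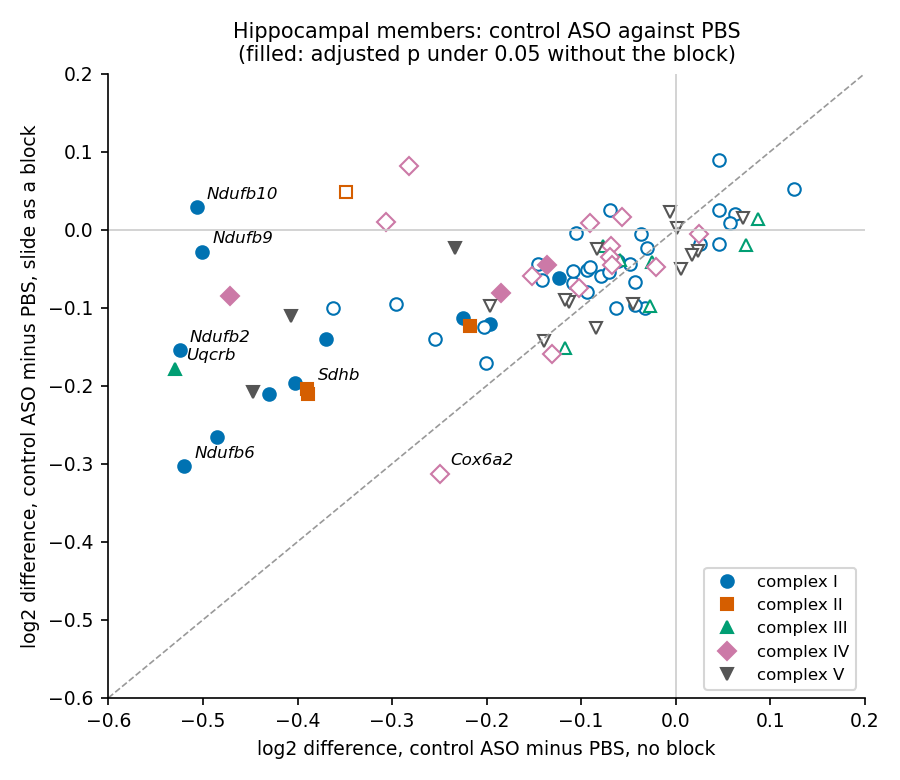
Log2 difference of each hippocampal member, control ASO minus PBS, without a block (horizontal axis) and with slide as a block (vertical axis), filled where the adjusted p without the block was under 0.05; the dashed line marks equality. All 21 filled points lie above the dashed line, between -0.30 and 0.029 on the vertical axis, while Cox6a2 lies below it.

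Markers of other cells moved in the same comparison, where 5.65% of all probes fell and 5.73% rose. Of 8 microglial markers 3 rose with the control ASO, of 6 oligodendrocyte markers 2 fell, of 8 neuronal markers 1 rose and 1 fell, and both erythroid markers fell. The mean oligodendrocyte marker level was 11.48 to 11.89 in control ASO and 11.55 to 12.07 in PBS hippocampi. The mean of the 4 choroid plexus markers was 7.87 to 11.84 in control ASO and 8.89 to 11.95 in PBS hippocampi, with 0 of the 4 called. Their part in the members' difference was not tested.

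Other mitochondrial genes were described beside the members. With the control ASO, 5 of 14 citric acid cycle and pyruvate dehydrogenase genes fell in the hippocampus, among them Cs, citrate synthase, by 0.33 on the log2 scale (adjusted p = 0.00686). Of 35 assembly factor genes 4 fell, including Sdhaf1 of complex II by 0.31, and 1 rose, the copper-binding factor Cox19 by 0.21. Of 11 further subunits and carriers 3 fell, Vdac2 of the outer membrane by 0.43 (adjusted p = 0.00155), Slc25a3 by 0.25 and Cox7a2l by 0.16. Of 71 genes of the mitochondrial ribosome 9 fell and 1 rose, and of 13 glycolysis genes 1 fell, Aldoa by 0.30. Beside these counts, 5.65% of all probes fell and 5.73% rose. Among 11 regulators of mitochondrial biogenesis 0 were called. In the slide-blocked fit 0 genes of these 6 lists were called in this comparison.

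The CD33 ASO was next set against the control ASO, which asks for the effect of the target beyond that of an oligonucleotide. In the hippocampus 7 members from 6 genes rose and 0 fell, where 1.8% of all probes rose, 1.73% fell and 3.53% changed in either direction. The median member difference was 0.089 against -0.007 over all probes. These arrays include the same control ASO arrays as above, so the comparisons are not independent. Complex II again had the largest median, 0.27, followed by 0.098 for complex IV and 0.096 for complex I. With slide as a block the members' median was 0.04, and 0 members were called, against 0.757% of all probes.

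Ndufb6 was 7.86, 7.96 and 8.16 in CD33 ASO and 7.13, 7.43 and 8.16 in control ASO hippocampi, with 1 high control ASO array reaching the top of the CD33 ASO range. Its difference was 0.47 ± 0.11 (SE, adjusted p = 0.0078). The second Ndufb6 probe differed by only 0.067 and was not called, so the probes of this gene disagree here too. Sdhb was 10.08, 10.23 and 10.66 against 9.71, 10.08 and 10.28 in control ASO hippocampi, a difference of 0.26 (adjusted p = 0.0441), and its second probe differed by 0.28 (adjusted p = 0.0442). Cox4i1 differed by 0.20 (adjusted p = 0.00602), at 13.61, 13.75 and 13.81 in CD33 ASO and 13.27, 13.53 and 13.77 in control ASO hippocampi. Ndufb3 of the complex I membrane arm rose by 0.17, Cox8a by 0.16 and 1 of the probes of Cox6b1 by 0.13, while the other Cox6b1 probe differed by 0.072 and was not called. Each of the 7 differences was positive but smaller with slide as a block, with Ndufb6 at 0.25 (adjusted p = 0.274) and Cox4i1 at 0.11 (adjusted p = 0.237).

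This count depended on which animals were included. Without the animals with low Thy1, Ndufb6 at 0.46 and Cox4i1 at 0.16 were the 2 members still called, against 0.657% of all probes that rose. The number called was 3 without CD33 ASO replicate 6 or 9 and 11 without CD33 ASO replicate 7. Ndufb6 and Cox4i1 stayed called with any 1 of the 39 hippocampal arrays left out. After median centring 1 member was called, where 1.76% of all probes were, and the median was 0.018. Within the 3 slides that held both groups the members' medians were 0.14, 0.0059 and 0.025. Of 6 oligodendrocyte markers 3 fell in this comparison and of 8 microglial markers Tyrobp rose by 0.58, and 2 of 4 endothelial markers fell. Of all probes 1.73% fell and 1.8% rose. Vdac2 and Cox7a2l among the further subunits and carriers and 4 of 71 mitochondrial ribosome genes rose, led by Mrpl55 at 0.28. None of these mitochondrial genes was called in the slide-blocked fit, and the part of the markers was not tested.

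**Figure D3:**
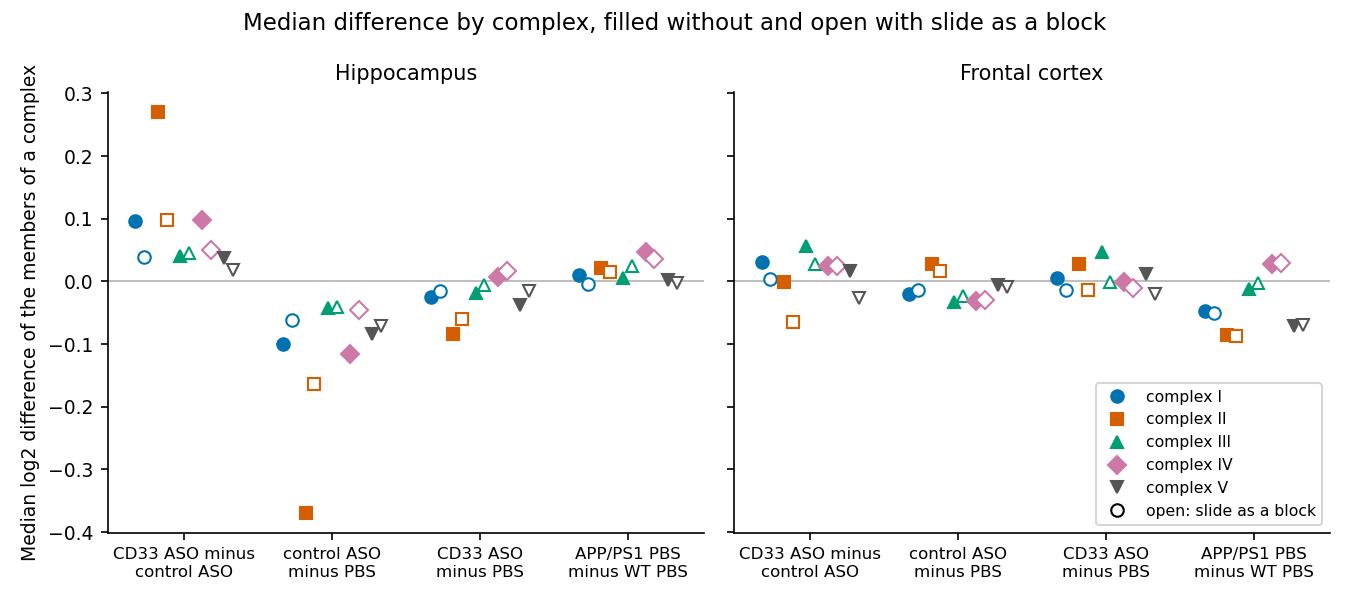
Median log2 difference of the members of each complex (vertical axis) in the 4 comparisons of each tissue, filled without and open with slide as a block. In the hippocampus every complex lies above 0 for CD33 ASO minus control ASO and below 0 for control ASO minus PBS, and complex II moves most between the fits; cortical medians lie between -0.087 and 0.057.

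Between the CD33 ASO and PBS in APP/PS1 hippocampi, 3 members fell and 0 rose, where 1.94% of all probes fell, 3.02% rose and 4.96% changed in either direction. The median member difference was -0.029. Cox6a2, the heart and skeletal muscle form of complex IV subunit 6A, fell most. It was 8.06, 8.51 and 8.88 in CD33 ASO and 8.69, 9.00 and 9.28 in PBS hippocampi, so that the upper CD33 ASO arrays overlapped the lower PBS arrays. The difference was -0.49 ± 0.10 (SE, adjusted p = 0.002), and -0.55 (adjusted p = 0.000616) with slide as a block. Cox6a2 was lower in each of the 4 slides that held both groups, by 0.46 to 0.77 on the log2 scale. Without the animals with low Thy1 the difference was -0.46 (adjusted p = 0.00523), where 1.98% of all probes fell. The widely expressed partner Cox6a1 was not called. In control ASO hippocampi Cox6a2 was 8.37, 8.73 and 9.07, which gave -0.25 against PBS (adjusted p = 0.0942) and, for the CD33 ASO against the control ASO, -0.24 (adjusted p = 0.158).

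The Ndufs4 probe that differed most with the control ASO, at -0.49, also fell with the CD33 ASO. It was 9.58, 9.74 and 9.94 in CD33 ASO and 9.83, 10.11 and 10.48 in PBS hippocampi, a difference of -0.37 ± 0.097 (SE, adjusted p = 0.0173). The slide-blocked difference was -0.31 (adjusted p = 0.016), and the probe was lower in 4 of 4 slides. The other 3 Ndufs4 probes were not called here. Without APP/PS1 PBS replicate 3, the animal collected on day 14, the adjusted p of the called probe was 0.052. Without the animals with low Thy1 it was called at -0.36 (adjusted p = 0.0309). Ndufv1 was 12.67, 12.74 and 12.95 in CD33 ASO and 12.79, 12.87 and 13.07 in PBS hippocampi, a difference of -0.13 (adjusted p = 0.024). That call was lost in the slide-blocked fit, where the difference was -0.10 (adjusted p = 0.0706), and without CD33 ASO replicate 2 or 7 or PBS replicate 4, with adjusted p up to 0.0827, and it was kept without the animals with low Thy1 (-0.16, adjusted p = 0.00383). With slide as a block 2 members, Cox6a2 and Ndufs4, were called against 5.27% of all probes.

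**Figure D4:**
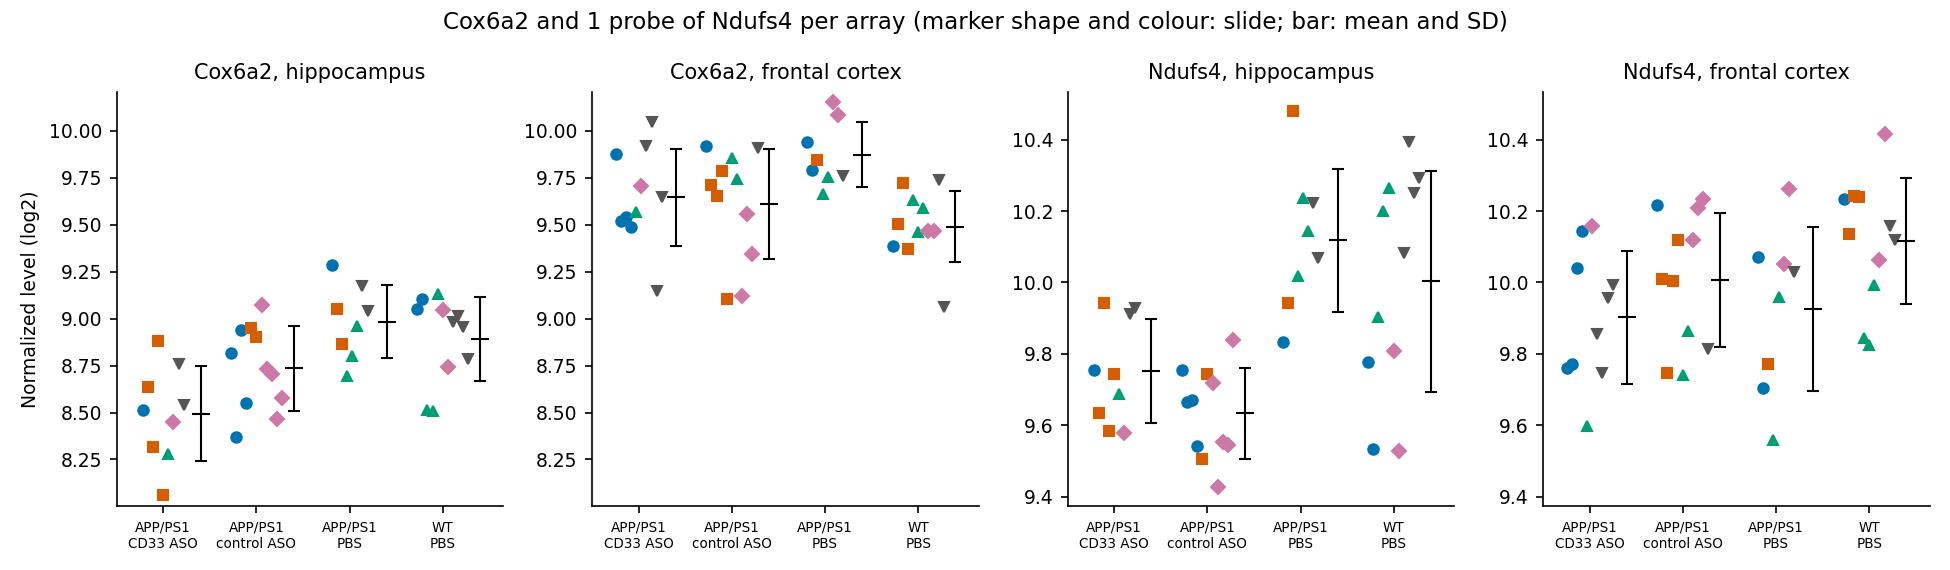
Log2 level of Cox6a2 and of 1 probe of Ndufs4 on each array by group in both tissues, with colour and shape for the slide and a bar for the mean ± SD. Hippocampal Cox6a2 lies lowest with the CD33 ASO (8.06 to 8.88), cortical Cox6a2 highest in APP/PS1 PBS (9.66 to 10.15), and hippocampal Ndufs4 lies low in both ASO groups.

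The CD33 ASO comparison with PBS also moved markers of other cells in both tissues. Of all hippocampal probes 1.94% fell and 3.02% rose, and of all cortical probes 0.802% fell and 0.686% rose. Of 6 oligodendrocyte markers 5 fell in the hippocampus and 5 in the cortex, and of 8 microglial markers 5 rose in the hippocampus and 0 in the cortex. The mean oligodendrocyte marker level was 11.25 to 11.66 in CD33 ASO and 11.55 to 12.07 in PBS hippocampi, and 10.99 to 11.53 in CD33 ASO and 11.52 to 11.80 in PBS cortices. Whether these cells have a part in the Cox6a2 difference was not tested.

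The genotype comparison, APP/PS1 PBS against WT PBS, called 0 of 86 members in the hippocampus with limma, where 0.952% of all probes were called. Of all 14923 probes 1273 had an unadjusted p under 0.05, and so had 3 members. These were Atp5b, the catalytic beta subunit, at -0.085, Atp5o at -0.11 and Cox5b at 0.089, with adjusted p of 0.342 to 0.49. Atp5b was 14.56, 14.65 and 14.76 in APP/PS1 and 14.67, 14.71 and 14.89 in WT hippocampi. The members' median was 0.017 and the medians of the complexes lay between 0.0023 and 0.047. In the same comparison 5 of 8 microglial markers and Gfap of the astrocytes rose, Trem2 by 1.42 and Tyrobp by 1.44.

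In the cortex, 1 member was called for genotype, a rise, where 3.66% of all probes rose and 4.18% changed in either direction. This was Cox6a2, at 9.66, 9.82 and 10.15 in APP/PS1 PBS and 9.06, 9.47 and 9.74 in WT cortices, a difference of 0.38 ± 0.10 (SE, adjusted p = 0.0191). The ranges met only between 9.66 and 9.74. In the slide-blocked fit it was 0.38 (adjusted p = 0.0284), and it was higher in 5 of 5 slides, by 0.15 to 0.65. The call was lost without APP/PS1 PBS replicate 6 (adjusted p = 0.0713) and after median centring (0.34, adjusted p = 0.153). In the hippocampus the genotype difference of Cox6a2 was 0.091 (adjusted p = 0.879). Over the cortical members the median was -0.039 against -0.026 over all probes, and complexes I, II and V lay between -0.047 and -0.085. With slide as a block 1 Ndufs4 probe was also called, at -0.22 (adjusted p = 0.0486), where 4.75% of all probes were called. The next members by p without the block were Cox5a at -0.15 (adjusted p = 0.0914) and a probe of Ndufs4 at -0.16 (adjusted p = 0.108). All 8 microglial markers rose in that comparison, and their part in the Cox6a2 difference was not tested.

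In the cortex few probes of any kind were called between the CD33 ASO or the control ASO and its comparator. For the CD33 ASO against the control ASO 0 of 85 members were called with limma, where 0.322% of all probes were. An unadjusted p under 0.05 was found for 6 members and for 1408 of all 14581 probes. The lowest p belonged to Cox6b2, the form of subunit 6B known from testis, at -0.31 (adjusted p = 0.313). For the control ASO against PBS 0 members were called, where 0.926% of all probes were. Here 4 members and 1478 of all 14581 probes had an unadjusted p under 0.05. Uqcrc1, a core protein of complex III, came closest at -0.12 (adjusted p = 0.0822), at 12.06, 12.12 and 12.23 in control ASO and 12.20, 12.26 and 12.44 in PBS cortices. The members' medians were 0.029 and -0.019 in these comparisons. Without the animals with low Thy1 0 members were called in either, where 0.192% and 0.974% of all probes were.

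For the CD33 ASO against PBS 1 cortical member fell, where 0.802% of all probes fell and 1.49% changed in either direction. It was Cox6b2, at 4.78, 5.17 and 5.45 in CD33 ASO and 5.41, 5.60 and 5.94 in PBS cortices, a difference of -0.49 ± 0.12 (SE, adjusted p = 0.0217). Fitted with slide as a block, Cox6b2 was at -0.51 (adjusted p = 0.0152), where 1.23% of all probes fell. Without the animals with low Thy1 it was at -0.47 (adjusted p = 0.0352), where 0.994% of all probes fell. These levels are close to background, since the probe was detected on 34 of 40 cortical arrays. The call was lost without APP/PS1 PBS replicate 7 (adjusted p = 0.0618), without CD33 ASO replicate 7 (adjusted p = 0.0511) and without the animals collected on another day (adjusted p = 0.0845). This PBS replicate came from the animal collected on day 14, which was replicate 3 in the hippocampus. In the cortex no choroid plexus marker was called in this comparison, and the mean marker level was 5.19 to 6.77 in CD33 ASO and 5.48 to 7.27 in PBS cortices.

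Whether a treatment effect differed between tissues was tested with animal as a random block over 15290 probes. Among the members only the Ndufs4 probe described above was called, for the control ASO against PBS, where 0.203% of all probes were called. Its difference in the hippocampus minus that in the cortex was -0.57 ± 0.12 (SE, adjusted p = 0.0336), with -0.49 in the hippocampus and 0.081 in the cortex. It was not called without the animals with low Thy1, after median centring or without the detection filter. Slide was not in this fit, and by an F test within groups slide was called for this probe in both tissues. For genotype 0 members were called, where 0.32% of all probes were, and for the CD33 ASO against PBS 0, where 0.124% were. For the CD33 ASO against the control ASO 0 members were called, where 0.00654% of all probes were.

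Levels of the members were close in both tissues of WT mice. Of 86 members 13 were higher and 5 lower in the hippocampus than in the cortex, where 19.5% and 18.5% of all probes were, and Cox8b was among the 13. The median difference was 0.031. The split depended on the scaling: with each tissue normalized by itself 51 members were higher and 1 lower, where 33% of all probes were higher and 12.7% lower. The authors' deposited table gave 52 higher and 1 lower, where 35.2% of all probes were higher and 12.2% lower. Atp5b, for example, was 14.67, 14.71 and 14.89 in hippocampi and 14.63, 14.71 and 14.76 in cortices, and Atp5g3, a gene of the membrane ring subunit c, 13.96, 14.13 and 14.20 in hippocampi and 14.01, 14.09 and 14.19 in cortices. Atp5g1, another gene of subunit c, was 12.81, 12.98 and 13.16 in hippocampi and 12.49, 12.64 and 12.78 in cortices, with no overlap and a difference of 0.33 ± 0.046 (SE, adjusted p = 3.64e-09). Of complex I genes, Ndufv3 was higher by 0.23 and 0.20 on separate probes, while a further, dimmer probe differed by 0.075 and was not called. On 1 probe Ndufa8 was higher by 0.17, while its brighter probe differed by 0.046 and was not called.

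Isoforms of complex IV showed the largest tissue differences among members. Cox8b, the heart and skeletal muscle form of subunit 8, was 6.25, 8.13 and 9.85 in WT hippocampi and 4.73, 4.93 and 5.29 in WT cortices. Its detection p-value was under 0.05 on all 11 WT hippocampal arrays but on only 2 of the 11 WT cortical ones, and it entered the test through the hippocampus alone. The difference of the means was 3.30, and 3.13 with each cortical array at no less than its lowest detected signal. Cox6b2 was higher in the hippocampus by 0.55 (adjusted p = 0.00408) and Cox7a1, the heart and skeletal muscle form of subunit 7A, by 0.37 (adjusted p = 0.0158). Cox6a2 went the other way, at 8.51, 8.98 and 9.13 in hippocampi and 9.06, 9.47 and 9.74 in cortices, a difference of -0.60 ± 0.092 (SE, adjusted p = 7.07e-08). Cox8a at -0.10, Cox6a1 at -0.084 and Cox4i1 at -0.095 were slightly lower in the hippocampus, and these 3 were above 0 when each tissue was normalized by itself. The other Cox6a1 probe differed by -0.053 and was not called. Tissue and slide cannot be told apart in any of these values.

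Within the hippocampus, Cox8b, Cox6b2 and Cox7a1, muscle or testis forms of complex IV subunits, were among the members that varied most between animals. The SD within groups was 1.27 for Cox8b and 0.53 for Cox6b2, followed by 0.42 each for Cox7a1 and for Sdhd, a membrane anchor of complex II, against a median of 0.11 over the members and 0.21 over all probes. Cox6a2, another muscle form, varied less, with an SD of 0.23. Cox8b ranged from 6.05 to 9.99 in CD33 ASO, 6.48 to 10.19 in control ASO, 6.44 to 9.58 in APP/PS1 PBS and 6.25 to 9.85 in WT hippocampi, so all groups spanned the same range. None of the 4 hippocampal comparisons of Cox8b, Cox7a1 or Cox6b2 was called, with adjusted p of 0.672 or more.

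The level of Cox8b, Cox7a1 and Cox6b2 followed that of choroid plexus markers, a relation chosen after the values were seen. The p-values below do not cover that choice, and Cox6a2 was not examined for the relation. The choroid plexus is the secretory epithelium of the ventricles, and the markers were Ttr, Folr1, Kl and Clic6, whose mean ranged from 7.82 to 12.28 over the 39 hippocampal arrays. For Cox8b Pearson's r was 0.944 and Spearman's rho 0.938, each with a permutation p of 1e-05, the smallest that the resamples allow, and 2.67e-05 adjusted over 8 relations. Without the 2 arrays farthest from the median marker level r was 0.934, and within the 5 slides it was 0.916 to 0.987. For Cox7a1 r was 0.843 (rho 0.849, 0.813 to 0.938 within slides) and for Cox6b2 0.81 (rho 0.865, 0.686 to 0.92 within slides), with the same permutation p. Within the 4 groups r was at least 0.959 for Cox8b, 0.748 for Cox7a1 and 0.706 for Cox6b2.

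Over the same arrays the r of the widely expressed forms was 0.259 for Cox8a (permutation p = 0.111), 0.192 for Cox6b1 (permutation p = 0.245) and 0.387 for Cox7a2 (adjusted permutation p = 0.0298), and r for Cox7a2 ranged from -0.436 to 0.715 within slides. In the cortex, where 3 of the 4 markers were measured, only 1 of them was detected on every array and their mean was 5.69 to 6.90 in WT brains, r was 0.192 for Cox7a1 and 0.00644 for Cox6b2, with permutation p of 0.237 and 0.969. WT hippocampi had a mean marker level of 8.24 to 12.28. How much plexus tissue a dissected hippocampus held is not recorded in the labels.

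**Figure D5:**
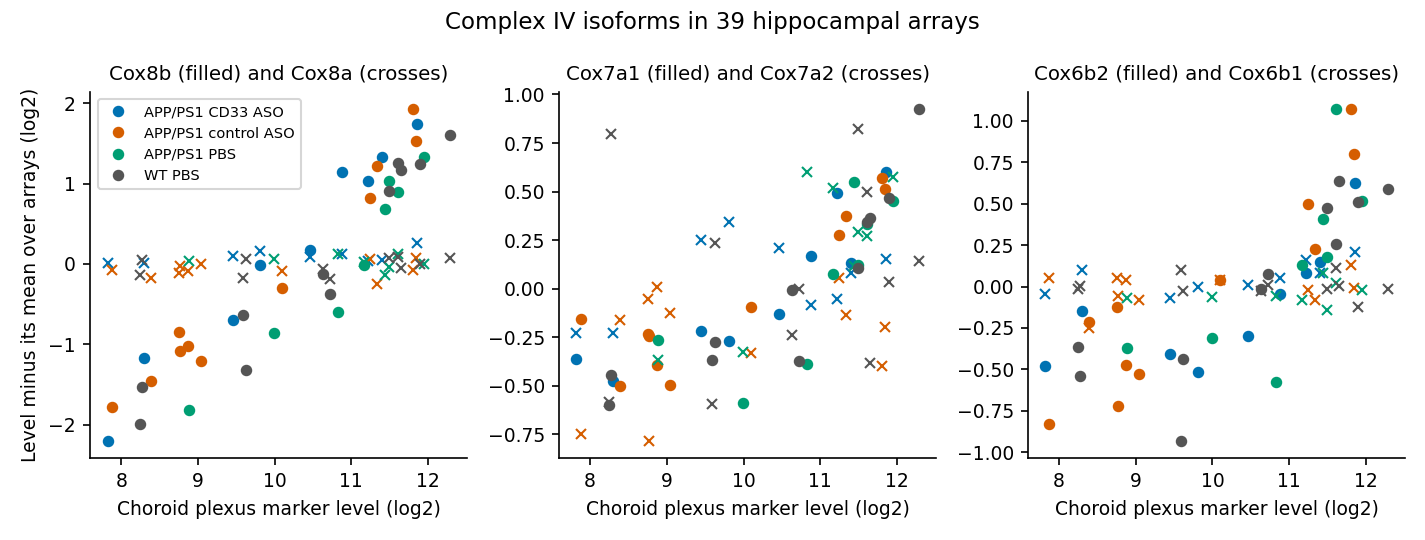
Level of each isoform minus its mean over the 39 hippocampal arrays (vertical axis, log2) against the mean log2 level of the choroid plexus markers (horizontal axis), by group, with Cox8b, Cox7a1 and Cox6b2 filled and Cox8a, Cox7a2 and Cox6b1 as crosses. The filled points climb with the markers in all groups (r 0.944, 0.843 and 0.81), and the crosses of Cox8a and Cox6b1 stay near 0.

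Over all measured members, the isoforms above included, the median SD within groups was 0.11 in the hippocampus and 0.13 in the cortex, against 0.21 and 0.22 over all probes. After removal of group means, the median correlation between pairs of members over the 39 hippocampal arrays was 0.17, and it was 0.18 within complex I, 0.41 within complex II and 0.17 between members of different complexes. With slide means also removed, these medians were 0.18, 0.16, 0.12 and 0.18 in the same order. Complex II had only 6 pairs. These values describe arrays that share slides and normalization. Cox8b, Cox7a1 and Cox6b2 kept correlations of 0.82 to 0.90 with each other in the hippocampus after slide means were removed.

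Slides moved many members in both tissues. By an F test within groups, slide was called for 29 of 86 hippocampal members, where 27.8% of all probes were called, and for 35 of 85 cortical members, where 21.9% were. Among hippocampal probes that fell with the control ASO, slide was called for Ndufb10, Ndufb9, Ndufb6, Ndufb2, Sdhb, Atp5h, Uqcrb and Cox7a2 (adjusted p 4.16e-07 to 0.0125). It was not called for Atp5a1 (adjusted p = 0.0923) or Ndufb5 (adjusted p = 0.217). Between these 10 probes the median correlation was 0.56 after removal of group means, and 0.21 with slide means also removed. The mean of all members was lowest on slide 4 in the hippocampus, at -0.096 with 7 of 8 arrays below 0, and highest on slide 5, at 0.10 with 0 of 8 below 0. In the cortex slide 8 lay lowest, at -0.067. By the same test surgery session was called for 0 members and for 0% of all probes in either tissue.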

How the data were processed

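Per the file headers, the authors deposited 1 signal intensity and 1 detection p-value per probe and array, on a linear scale with background already subtracted, so that some values are below 0. A second deposited table holds log2 values that share their quantiles within each tissue, so the authors normalized the tissues separately, and it was used only as an alternative. BeadStudio, GenomeStudio and Partek are named per the submitters' processing notes, with no role. The number of arrays limits the precision. Detected probes per array numbered 13139 to 14446 in the hippocampus and 13105 to 13766 in the cortex.

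Intensities of all 79 arrays were corrected and quantile normalized together with neqc of limma 3.58.1 (R 4.3.3, offset 16), which uses the detection p-values for the background. Probes with a detection p-value under 0.05 on at least 8 arrays of a tissue were kept. Each tissue was fitted by itself over its 4 groups with lmFit and eBayes with a trend, and p-values were adjusted by Benjamini and Hochberg over all probes kept, with 0.05 as threshold. Tissue contrasts used animal as a random block. Permutation tests used 100000 resamples and were two-sided (scipy 1.17.1, numpy 2.4.6, pandas 2.3.3, Python 3.11.15), and figures were drawn with matplotlib 3.10.9. The fit was tested on simulated data.

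In each comparison up to 10 called members with the largest difference were named, 1 probe per gene, or the 3 with the smallest p where fewer than 3 were called. Further called members, the isoform pairs and their relation to choroid plexus markers were named after their values were seen. The members and gene lists were chosen with earlier results of these data known. Alternatives covered background correction, normalization, the detection filter, the authors' table, slide, surgery session and replicate number as blocks, array weights, the day of collection, each array left out in turn, and, added after seeing the data, the animals with low Thy1.

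Replicate numbers of the titles did not pair the arrays: same-numbered arrays of different groups had a median correlation of residuals of 0.0545 over 53 pairs in the hippocampus and 0.0608 over 55 pairs in the cortex, with 22 pairs over 0.1 in each tissue.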

Additional observations from a re-analysis of the deposited data

Results flagged for a closer look

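Each named member and each mean of a complex or of all members was examined, within groups of 4 to 10 arrays, for a far sample. Of 82 such combinations of item and group 5 held one, and chance gives about 1 in 20 for a single combination. The combinations share arrays and are not independent. The control ASO and WT groups, with 11 arrays each in both tissues, were not examined in this way. Atp5o was 9.60 in the hippocampus of APP/PS1 PBS replicate 3, the animal collected on day 14, against 9.21 to 9.39 in the other arrays of that group. Cox5b was 13.61 in the hippocampus of CD33 ASO replicate 7, against 13.76 to 13.89 in the others. Uqcrc1 was 12.44 in the cortex of APP/PS1 PBS replicate 2, against 12.20 to 12.27 in the others. The mean of complex III was -0.077 in the hippocampus of APP/PS1 PBS replicate 4, against 0.024 to 0.11 in the others, and the mean of complex V was 0.19 in that of APP/PS1 PBS replicate 3, against -0.0024 to 0.076 in the others.

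The effect of the control ASO against PBS on 1 probe of Ndufs4 differed between tissues by the test of the difference itself, at -0.57 for the hippocampal minus the cortical difference. Slide was not in that fit. The call was lost without the animals with low Thy1, after median centring and without the detection filter.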

How the results depend on the processing

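With slide as a block 0 members were called for the hippocampal control ASO against PBS (0.811% of all probes), and 21 without it (11.4%). For the hippocampal CD33 ASO against the control ASO 0 were called (0.757%), and 7 without the block (3.53%). For cortical genotype 2 were called (4.75%), and 1 without the block (4.18%). Ndufb10 turned to 0.029 for the hippocampal control ASO against PBS. The cause was not tested, and slides and groups were unevenly crossed. After median centring 1 member was called for the hippocampal CD33 ASO against the control ASO (1.76% of all probes). For the hippocampal CD33 ASO against PBS it was 1 (3.06%), and for cortical genotype 0 (2.94%). For the difference between tissues 0 members were called, where 0.0262% were over all probes and the 4 comparisons. Slide was called for 55 hippocampal members (40.6% of all probes) and 67 cortical ones (47.4%). The median of the hippocampal control ASO against PBS was 0.034, Cox5b for hippocampal genotype was -0.015 and Cox6a1 between tissues 0.0072. For the tissue difference in WT, 52 members were called with each tissue normalized by itself and 53 in the authors' deposited table; Cox8a was then 0.014 and 0.020, Cox4i1 0.022 and 0.029, and Cox6a1 0.060 and 0.068. The cause of these shifts was not tested. Without the animals with low Thy1 2 members were called for the hippocampal CD33 ASO against the control ASO (1.48% of all probes). For the difference between tissues 0 were called, where 0.312% were over all probes and the 4 comparisons. That count was also 0 without the detection filter (0.0253%). Keeping only probes detected on every array left 0 for the cortical CD33 ASO against PBS (1.75% of all probes), since Cox6b2 was then not tested. Without animals collected on another day that count was 0 (1.32%), and cortical genotype had 2 (5.22%). The hippocampal control ASO against PBS then had 14 (8.76%).

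Replicate number as a block gave 28 called members for the hippocampal control ASO against PBS (13.6% of all probes), 8 for the CD33 ASO against the control ASO (4.32%) and 3 for the CD33 ASO against PBS (5.09%). It gave 2 for cortical genotype (4.45%) and 1 for the cortical control ASO against PBS (0.857%). Of the hippocampal arrays 7 of 39 correlated best with their own number, and of the cortical arrays 5 of 40.

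Leaving out 1 array at a time, the count ranged from 3 to 11 for the hippocampal CD33 ASO against the control ASO, 14 to 25 for the control ASO against PBS, 2 to 3 for the CD33 ASO against PBS, 0 to 2 for cortical genotype, 0 to 1 for the cortical CD33 ASO against PBS, and 14 to 20 for the tissue difference in WT. For cortical genotype it was 0 without APP/PS1 PBS replicate 6 and 2 without APP/PS1 PBS replicate 1, 5 or 7 or WT replicate 2. Apart from arrays left out in turn, 406 values of single members kept direction and call, 68 lost the call, 3 gained it and 9 turned sign.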
